A study of Mus musculus with 2 samples.

Results

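The matrix metalloproteinases (MMPs), the secreted ADAMTS proteases, the ADAMTS-like proteins and the inhibitors of these enzymes were examined in the embryonic gonad with its attached mesonephros. They were chosen by gene symbol, as every MMP, ADAMTS, ADAMTS-like and TIMP gene plus Reck that had a probe set annotated to that gene alone. This gave 43 genes with 79 probe sets, out of 18193 genes and 34958 such probe sets on the array. The set held 18 MMPs, 15 ADAMTS genes, 5 ADAMTS-like genes, 4 TIMPs and Reck. A floor was set at a signal of 24.0, the median of all values of both arrays. On 1 array or both, 27 of the 43 genes (62.8%) exceeded it, against 67.5% of all genes, and 16 did not.

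MMPs are zinc-dependent enzymes that cut collagens, laminins and other matrix proteins, and most are made as inactive precursors. ADAMTS proteases cut proteoglycans and procollagens, and the ADAMTS-like proteins resemble their ancillary domains but lack the protease domain. TIMPs block MMPs and some ADAMTS enzymes by binding the active site, and Reck is a membrane-anchored inhibitor. In gonads, such enzymes are known for the remodelling of basement membranes and stroma, and of the follicle wall in the adult ovary.

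The mutant tissue was gonad-mesonephros complexes of XX mouse embryos homozygous for the Gata4ki allele, taken at E12.5 (embryonic day), and it was compared with wild-type XX complexes of the same day. Gata4ki is a germline knock-in that weakens the binding of the transcription factor GATA4 to its FOG cofactors, and it is carried by every cell of the embryo. Each genotype was measured on 1 array with RNA pooled from 6 pairs of complexes. The strain was given as C57Bl/6 for the mutant only. With 1 array per genotype no test, standard deviation or p-value exists, and every difference is one between these 2 arrays. Gonad and mesonephros were read together, so no value belongs to the gonad alone, and fewer cells of a type cannot be told apart from less RNA per cell. Signals of different probe sets depend on their probes, so differences were read between arrays. Genes were also set against a shared floor, but a gene under it is not thereby shown to be unexpressed.

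The 2 arrays had 22534 probe sets above the floor in the mutant and 22566 in wild type. Ratios spread more at low signal: over probe sets, the log2 ratio had a robust SD of 0.37 where the mean signal was under 100, of 0.22 between 100 and 400, and of 0.12 beyond 400. Markers of the tissue were present, with all 10 ovarian supporting cell markers, all 9 mesonephric and Müllerian duct markers on the array and all 10 endothelial markers above the floor on at least 1 array. The supporting cell markers Sprr2d and Irx5 were under it in the mutant. Of the supporting cell markers 6 were at least 2-fold lower in the mutant. The 9 measured of 10 macrophage and leukocyte markers had a median log2 ratio of 0.58. Markers of trophoblast, a placental tissue, summed to 979 in the mutant and 309 in wild type, with Psg21 and Tpbpa not above the floor on either array. Plac1 gave 247 of the wild-type sum. Ctsj (283 in the mutant and 1.29 in wild type), Ctsq, Prl2b1, Prl7d1 and Hand1 were above the floor in the mutant only. The part of such tissue in the member values was not tested.

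In a run of 10 neighbouring MMP genes on chromosome 9, the 9 with a probe set of their own were under the floor on both arrays. The promoter windows of the run held other letters than the windows available for members above the floor. The run comprises Mmp13, Mmp12, Mmp1b, Mmp3, Mmp1a, Mmp10, Mmp8, Mmp27, Mmp20 and Mmp7 in chromosomal order in the RefSeq table of GRCm38.p6. Mmp27 had no such probe set. Of the other 9, 0 were above the floor, against 8 of the 9 other MMP genes on the array. Signals of the run lay between 0.16 and 16.8 on the mutant array and between 0.20 and 18.9 on the wild-type array. That none was above the floor depends on its level. Mmp10 (18.9) and Mmp7 (15.7) in wild type and Mmp8 (16.8) in the mutant exceeded 13.7, the lowest floor tried. The other genes of the run with a probe set stayed under 13.7 on both arrays. The windows described below were sorted by the floor of 24.0. The run holds the collagenases Mmp1a, Mmp1b, Mmp8 and Mmp13, the stromelysins Mmp3 and Mmp10, the matrilysin Mmp7, the macrophage elastase Mmp12 and the enamelysin Mmp20. Values under the floor were given no order, and at the floor of 24.0 no ratio was computed for them.

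Promoter windows of 300 bases, 250 before and 50 after the annotated start, are shown for 2 genes of the run and for 3 members with clear signals: Mmp14, its partner Timp2, and Adamts18, the member with the highest ratio. They are RefSeq sequence of GRCm38.p6, printed 5′ to 3′ on the strand of the gene, in lower case. Capitals mark the letters of 3 motifs. The first is the AP-1 motif, TGACTCA or TGAGTCA. The second is TATAAA. The third is a GATA motif, an A or T followed by GATA and then by an A or G. Each was searched on both strands. The windows are chr9:7272264-7272563 on the plus strand, chr9:7445572-7445871 on the plus strand, chr14:54431348-54431647 on the plus strand, chr11:118355362-118355661 on the minus strand and chr8:113848790-113849089 on the minus strand, in the order of the lines.
Mmp13: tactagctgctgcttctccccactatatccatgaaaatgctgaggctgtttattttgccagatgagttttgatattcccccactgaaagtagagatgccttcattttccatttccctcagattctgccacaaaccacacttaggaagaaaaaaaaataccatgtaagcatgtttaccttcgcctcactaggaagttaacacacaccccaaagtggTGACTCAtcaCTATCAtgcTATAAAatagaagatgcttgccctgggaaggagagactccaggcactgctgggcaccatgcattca
Mmp3: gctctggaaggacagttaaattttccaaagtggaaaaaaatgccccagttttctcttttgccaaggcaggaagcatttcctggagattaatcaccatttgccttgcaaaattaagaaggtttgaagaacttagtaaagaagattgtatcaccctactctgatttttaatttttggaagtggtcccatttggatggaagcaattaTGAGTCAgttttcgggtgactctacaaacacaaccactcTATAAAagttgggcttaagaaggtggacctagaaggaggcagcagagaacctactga
Mmp14: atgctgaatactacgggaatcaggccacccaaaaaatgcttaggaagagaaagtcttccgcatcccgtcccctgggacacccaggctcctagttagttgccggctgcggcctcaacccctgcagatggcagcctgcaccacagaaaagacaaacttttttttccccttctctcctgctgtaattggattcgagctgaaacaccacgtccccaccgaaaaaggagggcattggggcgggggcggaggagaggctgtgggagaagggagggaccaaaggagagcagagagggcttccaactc
Timp2: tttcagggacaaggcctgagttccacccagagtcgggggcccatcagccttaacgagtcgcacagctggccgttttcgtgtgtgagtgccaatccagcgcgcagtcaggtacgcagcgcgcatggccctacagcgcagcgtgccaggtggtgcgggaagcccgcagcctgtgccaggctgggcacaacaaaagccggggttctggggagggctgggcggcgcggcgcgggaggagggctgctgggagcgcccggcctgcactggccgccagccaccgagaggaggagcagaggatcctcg
Adamts18: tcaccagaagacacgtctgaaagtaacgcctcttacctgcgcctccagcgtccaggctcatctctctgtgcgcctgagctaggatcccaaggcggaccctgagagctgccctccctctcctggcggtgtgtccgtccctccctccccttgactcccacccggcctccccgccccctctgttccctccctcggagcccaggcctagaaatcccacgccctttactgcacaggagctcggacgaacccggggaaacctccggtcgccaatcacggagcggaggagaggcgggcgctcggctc

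In the Mmp13 window the AP-1 letters begin 35 bases and the TATAAA letters 16 bases before the annotated start, with a GATA motif on the opposite strand between them. The Mmp3 window has its AP-1 letters 46 bases and its TATAAA letters 7 bases before the start. The Mmp14, Timp2 and Adamts18 windows hold none of the 3 motifs. The RefSeq table used had 31 windows for 28 of the 43 genes. AP-1 letters stood in 7 of the 11 windows of the chromosome 9 run (63.6%), those of Mmp13, Mmp12, Mmp1b, Mmp3, Mmp1a, Mmp10 and Mmp7, between 35 and 93 bases before the start. They stood in 0 of 16 windows of the members above the floor, and in 1709 of all 32851 windows of the same length (5.20%). Those 16 windows belong to 15 of the 27 members above the floor. Mmp2, Mmp9, Adamts5 and Adamts16 are among those without a window, so their promoters were not searched. TATAAA was found in 9 of the 11 windows of the run, in 1 of the 16 windows of members above the floor, that of Adamts1, and in 13.6% of all windows.

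Base composition differed in the same way. The windows of the run had a G+C content of 37.7% to 52.0%, with 0 to 7 CpG dinucleotides, and those of the members above the floor 55.0% to 80.0%, with 7 to 44 CpG. The median of all windows was 52.7%. The 4 other members under the floor that had a window, Adamtsl2, Adamtsl3, Adamtsl5 and Timp4, had 53.3% to 78.7%, so being under the floor did not always go with a G+C-poor window. GATA motifs were found in 3 of 11 windows of the run (Mmp12, Mmp13 and Mmp7), in 2 of 16 windows of the members above the floor (Adamts20 and Mmp24) and in 29.8% of all windows. In the Mmp12 window the GATA letters share 1 base with the AP-1 letters. The genes of the run are related neighbours, so their windows are not independent, and a match of letters is a description of sequence only.

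**Figure D1:**
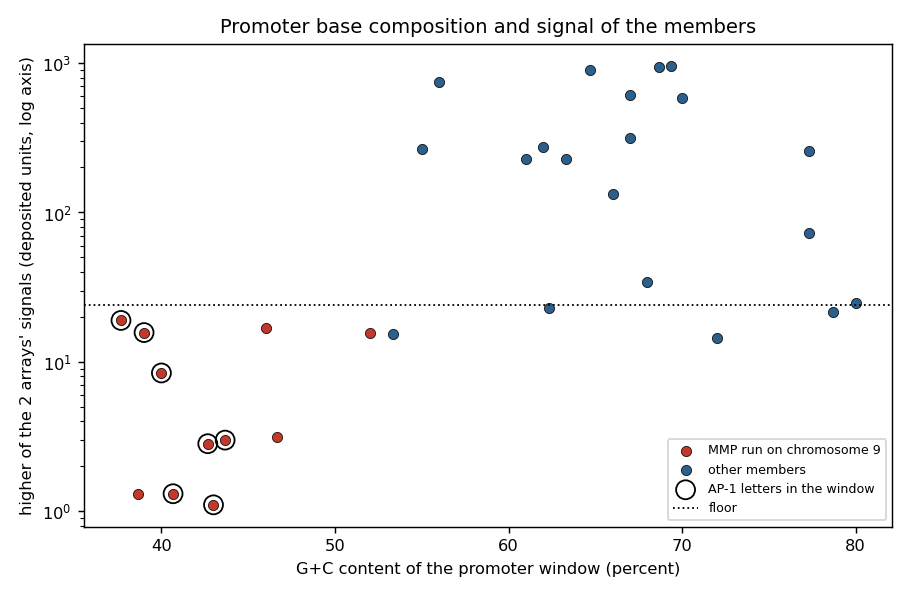
G+C content of each promoter window in percent (x axis) against the higher of the 2 arrays' signals for that gene (y axis, deposited units, log axis), 1 point per window. Red points are the MMP run on chromosome 9, blue points the other members, open rings mark windows with AP-1 letters and the dotted line is the floor of 24.0. The red points sit at the lower left, at G+C contents of at most 52.0% and all under the floor.

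Among the 27 measured members, 3 were at least 1.5-fold apart on the 2 arrays, 1 of them at least 2-fold. None was at least 2-fold higher in the mutant (0 of 27, against 0.83% of all 12284 measured genes), and 1 was at least 2-fold lower, Adamts16 (against 0.537%, or 1.37% either way). At 1.5-fold, 1 member was higher, Adamts18 (against 3.51% of all genes), and 2 were lower, Adamts16 and Mmp9 (against 3.1%). These 3 of 27 (11.1%) compare with 6.61% of all measured genes either way. All 3 had geometric mean signals under 100, where 3 of 10 members and 14.2% of all genes above the floor on both arrays were 1.5-fold apart. Adamts18, at 95.7, lies close to that limit. None of the 8 members with mean signals from 100 to 400 was 1.5-fold apart (3.54% of all genes at that level), and none of the 7 above 400 (0.852%). The median log2 ratio, Gata4ki/ki over wild type, was 0.04 over the 27 measured members and 0.01 over all measured genes. Ratios above 0 were found for 16 of 27 members (59.3%) and for 51.4% of all genes.

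**Figure D2:**
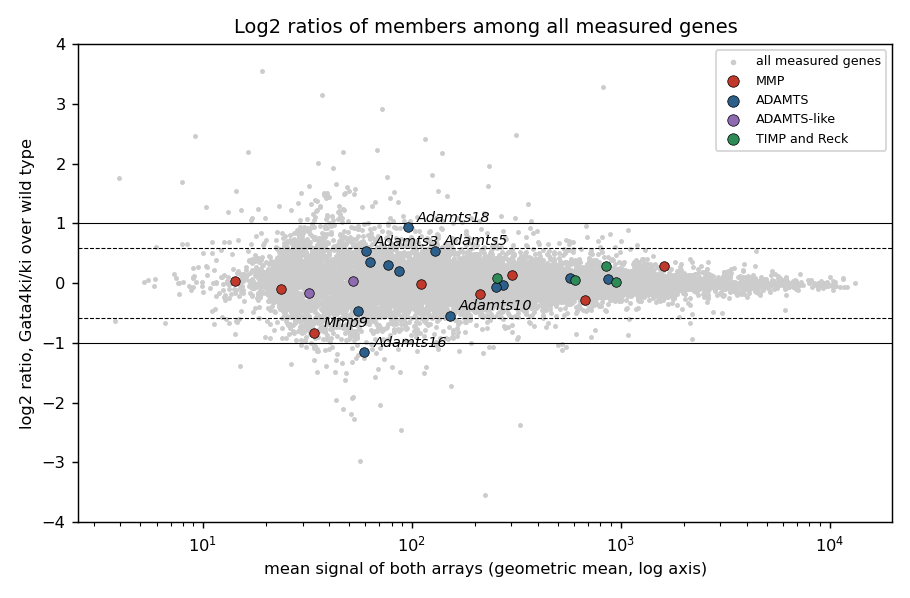
Log2 ratio, Gata4ki/ki over wild type (y axis), against the geometric mean signal of both arrays (x axis, log axis) for all measured genes (grey) and for the 27 measured members, coloured by family. Solid lines mark 2-fold and dashed lines 1.5-fold. Adamts16 lies below the lower solid line at a log2 ratio of -1.15, Adamts18 and Mmp9 lie between the solid and dashed lines, and the other members lie within 1.5-fold.

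The ADAMTS genes had both the highest and the lowest ratio of the set. Adamts16, a protease that in rodents is expressed in the embryonic kidney and gonad, gave signals of 39.8 on the mutant array and 88.5 on the wild-type array. This is a log2 ratio of -1.15, or 2.23-fold lower in the mutant. Its other probe set was under the floor on both arrays, at 11.7 in the mutant and 9.45 in wild type, so 1 probe set carries this difference. It did not reach 2-fold with the floor at the 60th percentile (a bound of -0.87) or with a pseudocount in its place (-0.82). At mean signals under 100, 1.07% of all genes were at least 2-fold lower. Supporting cell markers summed to 2066 in the mutant and 3734 in wild type, with 8 of 10 below 0 and a median log2 ratio of -1.24. Duct markers summed to 4042 in the mutant and 5292 in wild type, with 8 of 9 below 0 and a median of -0.19. Endothelial and skeletal muscle markers also had medians below 0, at -0.18 and -0.36, and the other marker lists had medians above 0. The part of any of these cell types in the Adamts16 value was not tested.

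Adamts18, the closest relative of Adamts16, went the other way. It encodes a protease that in mice is known from branching organs and the female reproductive tract. Its signals were 132.4 in the mutant and 69.2 in wild type, a log2 ratio of 0.94, or 1.91-fold higher. The 2 remaining Adamts18 probe sets were under the floor on both arrays, so this value too rests on 1 probe set. At that signal level 6.81% of all genes were at least 1.5-fold higher. Among stromal and smooth muscle markers 6 of 10 had ratios above 0, with sums of 13511 in the mutant and 12043 in wild type. Steroidogenic markers summed to 1710 in the mutant and 1224 in wild type, with 5 of 6 above 0. Their median log2 ratio was 1.24, and 3 of the 6 were at least 2-fold higher. Marker lists of trophoblast (1.19), erythroid cells (0.66) and macrophages and leukocytes (0.58) also had medians above 0. So did those of granulocytes (0.31), coelomic epithelium (0.29) and germ cells (0.10). The supporting cell, duct, endothelial and skeletal muscle lists had medians below 0. The part of any of these cell types in the Adamts18 value was not tested.

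Adamts5, a proteoglycan-cleaving enzyme also called aggrecanase 2, was higher in the mutant on all 3 of its measured probe sets. Its brightest probe set gave 155.1 in the mutant and 106.5 in wild type, a log2 ratio of 0.54, or 1.46-fold higher. The central 95% of all probe sets with mean signals from 100 to 400 lay between -0.55 and 0.55, so that ratio lies inside their range. The next gave 120.0 in the mutant and 63.8 in wild type, a ratio of 0.91. The third gave 40.5 in the mutant and 24.0 in wild type, a ratio of 0.75. At mean signals under 100, where both belong, the central 95% of all probe sets lay between -0.81 and 0.77. The ratio of 0.91 lies outside that range and that of 0.75 inside it. The wild-type value of the third probe set was only just above the floor, and the last Adamts5 probe set was under it on both arrays. Its chromosomal neighbour Adamts1, a versican-cleaving protease needed for normal ovulation in mice, had 893.2 in the mutant and 851.6 in wild type. The Adamts1 ratio was 0.07.

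Other proteoglycan-cleaving ADAMTS genes lay within 1.5-fold on their brightest probe sets. Adamts4, or aggrecanase 1, had signals of 71.2 in the mutant and 55.6 in wild type, a log2 ratio of 0.36. Its dimmer probe set gave 38.8 in the mutant and was under the floor in wild type, a bound of at least 1.61-fold higher. Adamts9 and Adamts20 are the mammalian relatives of GON-1, a protease that shapes the gonad in the worm Caenorhabditis elegans. Adamts9 had 587.9 in the mutant and 556.3 in wild type, a ratio of 0.08, while its second probe set gave 83.2 in the mutant and 112.9 in wild type, a ratio of -0.44. Adamts20 had 248.8 in the mutant and 259.6 in wild type, a ratio of -0.06. Adamts15 had 46.9 in the mutant and 64.8 in wild type, a ratio of -0.47. Its neighbour on chromosome 9, Adamts8, was under the floor on both arrays. Of the 6 measured genes of this class 4 had ratios above 0 (51.4% of all genes) and none reached 1.5-fold (6.61% of all genes).

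The remaining ADAMTS genes included several close to the 1.5-fold line. Adamts3, which removes the amino-terminal propeptide of procollagens, had signals of 72.7 in the mutant and 50.3 in wild type, a log2 ratio of 0.53. Adamts10, known for its link to fibrillin microfibrils, had 126.3 in the mutant and 184.4 in wild type, a ratio of -0.55, or 1.46-fold lower. Adamts3, Adamts5 and Adamts10 were thus the members nearest to 1.5-fold without reaching it, at 1.44-fold to 1.46-fold, and Mmp9 and Adamts18, at 1.78-fold and 1.91-fold, the nearest beyond it. Adamts12 and Adamts7 can both cut the cartilage matrix protein COMP. Adamts12 had 270.8 in the mutant and 275.9 in wild type, a ratio of -0.03, and Adamts7 a ratio of 0.20. Adamts6, a relative of Adamts10, had a ratio of 0.31. Adamts19 was under the floor on both arrays. Among the ADAMTS-like genes Adamtsl1 had a ratio of 0.04 and Adamtsl4 of -0.17, and Adamtsl2, Adamtsl3 and Adamtsl5 were under the floor. The members nearest the floor were Adamtsl2 and Adamtsl3 below it, with highest signals of 22.9 and 21.7, and Mmp24 and Mmp17 above it, with 24.7 and 25.8.

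**Figure D3:**
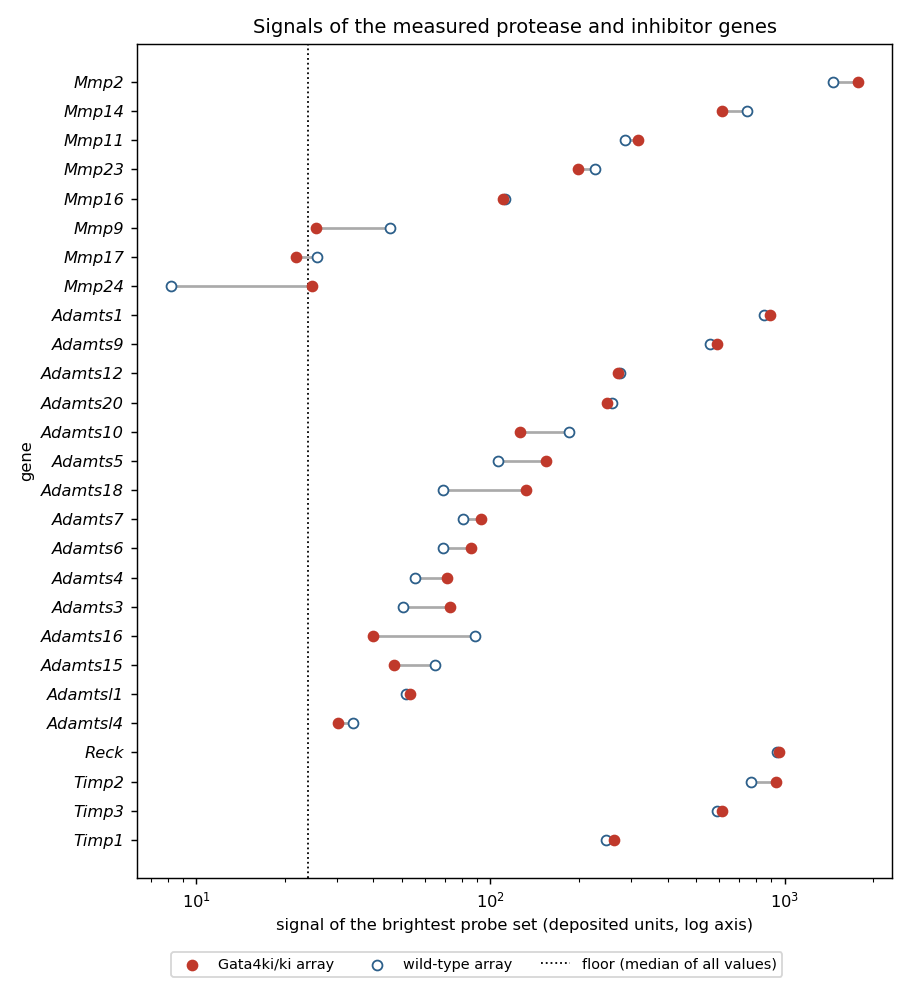
Signals of the brightest probe set (x axis, deposited units, log axis) of the 27 measured members (y axis), grouped by family and ordered by mean signal, with filled red points for the Gata4ki/ki array, open blue points for the wild-type array and a grey line between them. The dotted line is the floor of 24.0. The wide gaps are those of Adamts16 and Mmp9, lower in the mutant, Adamts18, higher in the mutant, and Mmp24, whose wild-type value of 8.23 is under the floor.

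Mmp2, Mmp14 and Timp2 are known to act together: MMP14 at the cell surface holds TIMP2, which in turn holds the MMP2 precursor for activation. Gelatinase A, encoded by Mmp2, cuts denatured collagen and basement membrane collagen. On its brightest probe set Mmp2 had signals of 1777 in the mutant and 1463 in wild type, a log2 ratio of 0.28. The second Mmp2 probe set gave 1593 in the mutant and 1295 in wild type, a ratio of 0.30. Both were thus about equally higher in the mutant, by 1.21-fold and 1.23-fold, and under the 1.5-fold line. At mean signals above 400 the central 95% of all probe sets lay between -0.33 and 0.34 on the log2 scale, so the Mmp2 ratios lie inside that range.

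Mmp14, a membrane-type collagenase, was lower in the mutant on all 3 of its probe sets. The brightest gave 613.2 in the mutant and 744.0 in wild type, a log2 ratio of -0.28. The second gave 74.7 in the mutant and 141.1 in wild type, a ratio of -0.92, and the third 72.3 in the mutant and 82.7 in wild type, a ratio of -0.19. The probe sets thus pointed the same way but differed in size by 0.72 on the log2 scale.

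Timp2 gave the widest disagreement between probe sets in the set. Its brightest probe set had 934.7 in the mutant and 766.2 in wild type, a log2 ratio of 0.29. The next 2 gave 581.2 in the mutant and 630.4 in wild type, a ratio of -0.12, and 542.2 in the mutant and 583.1 in wild type, a ratio of -0.11. The 2 dimmer ones gave 139.2 in the mutant and 238.4 in wild type, a ratio of -0.78, and 65.0 in the mutant and 102.1 in wild type, a ratio of -0.65. Only 1 of the 5 measured Timp2 probe sets was higher in the mutant, and the sixth was under the floor on both arrays. The values span 1.06 on the log2 scale, so no direction is given for Timp2. The position of the probes in the transcript was not analysed here.

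The other inhibitors had nearly equal signals in both genotypes. Timp1, an X-linked gene, had 264.0 in the mutant and 247.7 in wild type, a log2 ratio of 0.09. Timp3, the TIMP that stays bound to the matrix and also inhibits ADAMTS4 and ADAMTS5, had 613.1 in the mutant and 589.6 in wild type, a ratio of 0.06, and its 4 probe sets lay between -0.19 and 0.09. Reck, which restrains MMP2, MMP9 and MMP14, had 957.0 in the mutant and 943.6 in wild type, a ratio of 0.02. Timp4 was under the floor on both arrays. None of the 4 measured inhibitors reached 1.5-fold on its brightest probe set, and 93.4% of all measured genes did not either.

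**Figure D4:**
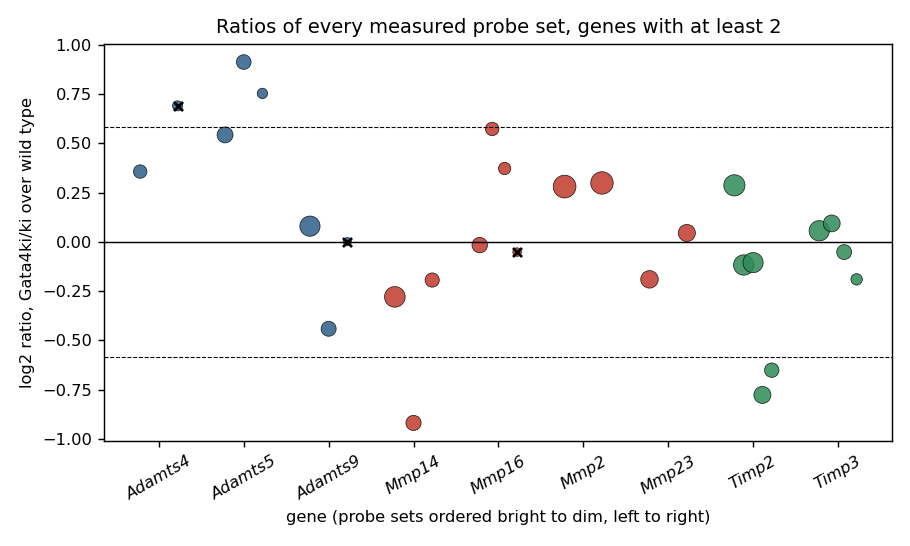
Log2 ratio, Gata4ki/ki over wild type (y axis), of every measured probe set of the 9 members with at least 2 of them (x axis), ordered from bright to dim within a gene. Larger points have a higher mean signal, colours mark the families, crosses mark bounds and dashed lines mark 1.5-fold. All points of Adamts5 are above 0 and all of Mmp14 below 0, whereas those of Timp2 run between 0.29 and -0.78.

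Probe sets agreed about as often as elsewhere on the array. Among the 9 members with at least 2 measured probe sets, 4 (44.4%) had all of them pointing the same way, Adamts4, Adamts5, Mmp14 and Mmp2, against 45% of all 5463 such genes. No member was 1.5-fold apart in the same direction on all its probe sets, which 0.86% of all such genes were. Counted by probe set, 4 of 46 measured ones (8.7%) were at least 1.5-fold higher, against 3.7% of all probe sets. At least 1.5-fold lower were 5 (10.9%), against 4.03%. Most of them had mean signals under 100, where ratios spread more, and these shares were not matched by signal. The higher ones belonged to Adamts18, Adamts5 and Adamts4, and the lower ones to Adamts16, Mmp9, Mmp14 and Timp2. Such probe sets were hybridised with the same RNA, so their spread says nothing of differences between embryos. The cause of that spread was not tested.

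Gelatinase B, encoded by Mmp9 and known from leukocytes and osteoclasts, was dim on both arrays. Its brightest probe set gave 25.6 in the mutant and 45.4 in wild type, a log2 ratio of -0.83, or 1.78-fold lower. The mutant value is close to the floor, and the second Mmp9 probe set was under it on both arrays, at 10.4 in the mutant and 22.6 in wild type. At that signal level 7.38% of all genes were at least 1.5-fold lower. Macrophage and leukocyte markers summed to 2090 in the mutant and 1374 in wild type, with 8 of 9 measured ratios above 0 and Itgam under the floor. Granulocyte markers summed to 3014 in the mutant and 2276 in wild type, with 7 of 8 above 0 and a median log2 ratio of 0.31, and Elane and Ctsg under the floor. With a pseudocount in place of the floor the Mmp9 ratio was -0.49, short of 1.5-fold, and a floor at the 60th percentile left Mmp9 unmeasured on both arrays. The marker sums were higher in the mutant while Mmp9 was lower, and their part in the Mmp9 value was not tested.

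Of the other MMPs, none reached 1.5-fold on its brightest probe set (6.61% of all measured genes did). Mmp11, or stromelysin 3, had 316.2 in the mutant and 287.3 in wild type, a log2 ratio of 0.14. Mmp23 had 198.9 in the mutant and 226.9 in wild type, a ratio of -0.19, against 0.05 on the other probe set. The membrane-type Mmp16 had 110.6 in the mutant and 111.9 in wild type, a ratio of -0.02. Its next 2 probe sets gave ratios of 0.57 and 0.37, so the Mmp16 probe sets did not agree. Mmp17 and Mmp24, also membrane-type, had 1 array under the floor each. Mmp17 was at least 1.07-fold lower, with 21.8 in the mutant and 25.8 in wild type. Mmp24 was at least 1.03-fold higher, with 24.7 in the mutant and 8.23 in wild type. Mmp19 was the MMP outside the chromosome 9 run that was under the floor on both arrays.

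Genes that activate, restrain or receive these enzymes were compared in 4 lists. In the list of MMP regulators other than TIMPs, 9 of 15 genes were measured, and 2 of the 9 were at least 2-fold higher, against 0.83% of all genes. These were the thrombospondins Thbs2 and Thbs1, which bind MMPs and take part in their clearance. Thbs2 had 232.9 in the mutant and 66.8 in wild type, a log2 ratio of 1.80. Thbs1 had 57.4 in the mutant and 26.7 in wild type, a ratio of 1.10, with the wild-type value close to the floor of 24.0. Spock2, a testican, followed at 0.58, just under 1.5-fold. The median of this list was 0.20. The list was chosen with earlier results of these data known, so its share of 2-fold genes is not a test of the list. Lrp1, the receptor that clears MMP complexes with thrombospondins or TIMPs, had a ratio of 0.14, and Bsg, an inducer of MMPs, of 0.07.

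In the other 3 lists no gene reached 1.5-fold, which 6.61% of all measured genes did. Among 16 measured metalloproteinases and convertases outside the MMP and ADAMTS families, Mme, a membrane peptidase, had 709.6 in the mutant and 492.7 in wild type, a log2 ratio of 0.53. Bmp1, the carboxy-terminal procollagen protease, had 293.5 in the mutant and 419.4 in wild type, a ratio of -0.51, and Mep1b was at 0.51. Furin, which activates Mmp14 and Mmp11 precursors, was at 0.10. That list had a median of 0.05. Of the plasminogen system 4 of 7 genes on the array were measured, with Serpinf2 at a bound of -0.44, Plaur at -0.30, Plgrkt at 0.14 and a median of -0.17.

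Substrate genes were close in both genotypes. Of 19 matrix and proteoglycan genes on the array 15 were measured, with a median log2 ratio of 0.11 and 10 above 0. Col1a1, Tnc and Fbn2 had the largest ratios, at 0.38, 0.33 and 0.24. Vcan, the versican that Adamts1, Adamts5 and Adamts9 cut, had 1022 in the mutant and 940.3 in wild type, a ratio of 0.12. Acan, Bcan, Ncan and Comp, the aggrecan, brevican, neurocan and COMP substrates, were under the floor on both arrays. Of the 4 large hyaluronan-binding proteoglycans only Vcan was thus above the floor.

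**Figure D5:**
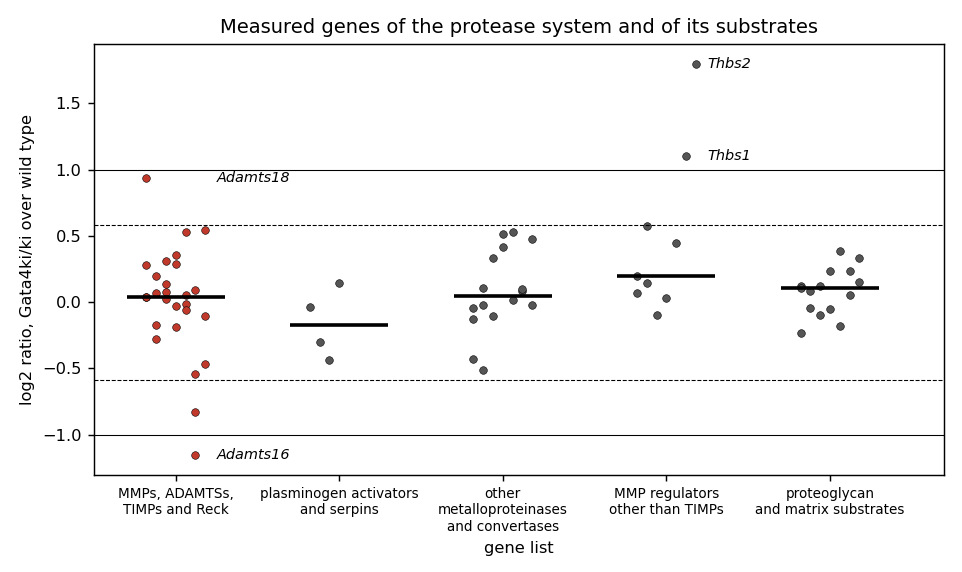
Log2 ratio, Gata4ki/ki over wild type (y axis), of the measured MMP, ADAMTS, ADAMTS-like, TIMP and Reck genes (red) and of the measured genes of 4 related lists (grey), 1 point per gene, with the list median as a black bar. Solid lines mark 2-fold and dashed lines 1.5-fold. Adamts16, Thbs1 and Thbs2 lie beyond 2-fold, and the medians lie between -0.17 and 0.20.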

How the data were processed

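The authors deposited a table of MAS5 signal intensities, 1 linear value for each probe set and array, with MAS5 named per the submitters' processing notes. Settings and detection calls: not given in the sources used here. Both arrays had the same trimmed mean, 150.0. Values were used as deposited. Probe sets were named through the platform annotation (34958 with 1 symbol, 932 with several, 9211 not listed), and all 43 members matched the RefSeq table by gene number and symbol. Values under the floor, the 50th percentile of both arrays (24.0), were set to it before log2, and a ratio with 1 array at the floor is a bound. Each gene was read from the probe set of highest mean log2 signal, and 64 control probe sets were left out. With 1 array per genotype and no test, genes were counted at 2-fold and 1.5-fold beside the same share of all genes. Precision is limited by the number of arrays.

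Signals were given for every measured TIMP and Reck, every member 1.5-fold apart, the 12 members with the highest mean signal, members whose probe sets disagreed, and up to 3 genes per related list; others were added after their values were seen. Members and lists were chosen with earlier results of these data known. The alternatives were floors at the 40th and 60th percentiles, a pseudocount, the median over probe sets, leaving out suffixed probe sets, quantile normalization and median scaling. The 2-fold count was checked on simulated signals with known ratios, planted only in genes of higher mean signal than Adamts16, Adamts18 and Mmp9. The 1.5-fold count was not checked in this way. Python 3.11.15, pandas 2.3.3 and NumPy 2.4.6 were used.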

Additional observations from a re-analysis of the deposited data

How the results depend on the processing

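Over 7 alternatives, 180 of 184 member ratios moved by less than the robust SD of probe sets at their signal level, and none of the members 1.5-fold apart changed direction. Adamts16 ranged from -1.15 to -0.82 and Adamts18 from 0.75 to 0.94, both past 1.5-fold throughout. The 1 gene at least 2-fold lower became 0 with the floor at the 60th percentile and with the pseudocount, since both shrink low values. With the floor at the 40th percentile 6 members were 1.5-fold apart, 3 of them higher (Adamts18, Adamtsl2 and Mmp24) and 3 lower (Adamts16, Adamtsl3 and Mmp9), against 10.1% of all genes, and 7 of 15 genes had all probe sets pointing the same way. Members 1.5-fold higher numbered 2 with the pseudocount and 2 with the median over probe sets, where Adamts5 reached 0.75. Members 1.5-fold lower numbered 1 with the floor at the 60th percentile and 1 with the pseudocount, without Mmp9. Timp2 was at -0.12 with the median over probe sets, Mmp23 at 0.05 without suffixed probe sets, and Mmp24 at 0.85 with the lower floor and 0.59 with the pseudocount. Among all genes, 2-fold differences took 2.44% with the floor at the 40th percentile, 0.696% at the 60th and 0.814% with the pseudocount. The median of the members stayed between 0.02 and 0.07. Mmp7, Mmp8 and Mmp10 of the chromosome 9 run each exceeded the lowest floor tried on 1 array. No paired analysis was possible because each genotype has 1 array.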

Other observations

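The genes next to the members with the largest ratios were read as well. Adamts16 lies between Ice1 and Irx1 on chromosome 13. Irx1, an Iroquois homeobox gene, had signals of 58.4 in the mutant and 51.8 in wild type, a log2 ratio of 0.17, and Ice1 had 654.3 in the mutant and 700.6 in wild type, a ratio of -0.10. Adamts18 is flanked on chromosome 8 by Syce1l, which was under the floor on both arrays, and by Nudt7, which had 159.0 in the mutant and 151.5 in wild type, a ratio of 0.07. No measured direct neighbour of either gene was 1.5-fold apart, and 93.4% of all measured genes were not either.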
